A study of Mus musculus with 12 samples.

Results

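Eed binding and H3K27me3 were compared promoter by promoter in wild type mouse forebrain at stage E12.5. Of the 12 libraries of the study, 4 carried this comparison: Eed and its input from immunoprecipitation of cross-linked chromatin (X-ChIP), and H3K27me3 and its non-specific IgG control from CUT&Tag, where an antibody guides a transposase to its target. They were chosen by their labels, with 1 library per group. All came from untreated C57BL/6 animals that were wild type for Eed. BGISEQ-500 reads were made from the first pair and NovaSeq reads from the second, so the target and the assay cannot be told apart, and ranks were compared rather than levels. The wild type H3K27ac and RNA-Pol2 CUT&Tag libraries were used as further readouts. So were the Eed and input X-ChIP libraries of the EedcKO genotype, a conditional knockout of Eed on the same strain, age and tissue. The sources used here name neither the Cre driver of that allele nor the number of embryos per library. With 1 library per group no difference below has a replicate check and none was tested. The intervals given are 95% intervals for counting error only.

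Eed belongs to the core of Polycomb repressive complex 2 (PRC2). There it works with Suz12 and the methyltransferase Ezh2, and a pocket in Eed binds H3K27me3 that is already present, which stimulates the enzyme to mark neighbouring nucleosomes. PRC2 is the enzyme complex that deposits H3K27me3. In embryonic tissue the mark covers the promoters of developmental regulators that are silent in a given lineage, and acetylation of the same lysine, H3K27ac, lies at active promoters and enhancers. Vertebrate PRC2 is known to be recruited to unmethylated CpG islands, stretches rich in the dinucleotide CG.

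Each promoter was a 2 kb window centred on a start site, and 50816 promoters, 1 per gene symbol, had at least 10 counts summed over input and IgG. The promoter counts summed to 1972842 for Eed, 1018763 for input, 3161526 for H3K27me3 and 1412310 for IgG. Eed was ranked by its log2 ratio over input and H3K27me3 by its log2 ratio over IgG, so the ranks share no library. A promoter was called high in the top 10% of ranks and low below the median rank, which sets 3 classes: high in both, high in Eed with low H3K27me3 (Eed without mark), and high in H3K27me3 with low Eed (mark without Eed). The lower bound of high was a log2 ratio of 1.36 for Eed and of 0.65 for H3K27me3. A 2-fold ratio over control instead was reached by 14.5% of promoters for Eed and by 7.59% for H3K27me3. Of the tested windows, 21.4% overlapped another window and share reads with it.

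The sequences of 6 promoters are given as examples of the 3 classes. They are RefSeq promoters of GRCm38.p6 from 250 bases before to 50 bases after the start, written 5′ to 3′ on the strand of the gene, with every CG dinucleotide in capitals. Nkx2-4 (chr2:147085296-147085595, minus strand), a homeobox factor of the ventral brain, and Irx2 (chr13:72628570-72628869, plus strand), an Iroquois homeobox factor, were high in both. Their sequences hold 38 and 25 CG.
Nkx2-4: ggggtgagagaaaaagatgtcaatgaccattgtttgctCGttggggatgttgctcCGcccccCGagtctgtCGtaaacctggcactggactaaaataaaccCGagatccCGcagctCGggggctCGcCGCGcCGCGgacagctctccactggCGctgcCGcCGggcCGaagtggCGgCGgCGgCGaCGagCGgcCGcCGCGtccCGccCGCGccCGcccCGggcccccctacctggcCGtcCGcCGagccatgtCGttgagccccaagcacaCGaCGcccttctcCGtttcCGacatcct
Irx2: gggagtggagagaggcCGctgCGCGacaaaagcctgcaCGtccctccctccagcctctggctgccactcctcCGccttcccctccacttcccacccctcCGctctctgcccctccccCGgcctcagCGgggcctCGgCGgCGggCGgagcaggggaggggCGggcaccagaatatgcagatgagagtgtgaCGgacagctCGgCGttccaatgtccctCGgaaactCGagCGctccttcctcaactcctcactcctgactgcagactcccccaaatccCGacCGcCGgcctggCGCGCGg

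Mael (chr1:166238695-166238994, minus strand), which acts in piRNA silencing in germ cells, and Tab3 (chrX:85573772-85574071, plus strand), an adaptor of the TAK1 kinase, had Eed without the mark. Their sequences hold 24 and 30 CG.
Mael: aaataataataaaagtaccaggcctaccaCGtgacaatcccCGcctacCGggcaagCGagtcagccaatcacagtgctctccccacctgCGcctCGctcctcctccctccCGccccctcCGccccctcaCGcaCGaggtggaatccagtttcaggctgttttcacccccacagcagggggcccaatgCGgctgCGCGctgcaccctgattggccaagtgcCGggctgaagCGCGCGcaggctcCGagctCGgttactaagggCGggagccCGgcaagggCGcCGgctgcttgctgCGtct
Tab3: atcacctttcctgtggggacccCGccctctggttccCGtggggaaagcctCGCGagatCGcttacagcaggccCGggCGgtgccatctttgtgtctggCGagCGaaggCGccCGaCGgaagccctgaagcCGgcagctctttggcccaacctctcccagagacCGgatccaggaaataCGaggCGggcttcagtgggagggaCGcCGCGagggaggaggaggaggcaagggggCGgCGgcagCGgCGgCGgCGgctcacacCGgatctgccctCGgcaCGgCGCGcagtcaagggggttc

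Cyp27b1 (chr10:127047996-127048295, plus strand), the hydroxylase that makes active vitamin D, and Lhx8 (chr3:154330511-154330810, minus strand), a LIM homeobox factor of cholinergic neurons, had the mark without Eed. Their sequences hold 2 and 4 CG. Both counts lie below the interquartile range of coding promoters in their class (6 to 15). The 38 CG of Nkx2-4 lie above that of promoters high in both (21 to 37).
Cyp27b1: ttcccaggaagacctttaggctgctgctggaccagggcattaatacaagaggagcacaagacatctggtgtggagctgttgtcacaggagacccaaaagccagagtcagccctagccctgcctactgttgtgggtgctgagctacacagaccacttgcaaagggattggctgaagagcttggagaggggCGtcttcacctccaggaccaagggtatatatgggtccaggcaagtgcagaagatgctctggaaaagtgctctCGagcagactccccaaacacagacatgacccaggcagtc
Lhx8: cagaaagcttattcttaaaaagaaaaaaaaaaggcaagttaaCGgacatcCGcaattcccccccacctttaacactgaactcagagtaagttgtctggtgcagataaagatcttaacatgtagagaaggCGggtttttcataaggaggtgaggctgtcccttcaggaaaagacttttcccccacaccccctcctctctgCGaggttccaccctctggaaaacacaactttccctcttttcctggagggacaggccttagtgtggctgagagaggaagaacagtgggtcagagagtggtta

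Across all promoters the ranks of Eed and H3K27me3 rose together only in part. Spearman's rho was 0.39 over 50816 promoters, 0.49 over the 20325 protein-coding ones and 0.12 over the 30491 others. These correlations are across genes, which are not independent and share library depth and base composition, so no p-value is given. The rank of Eed followed H3K27ac (rho 0.39) and RNA-Pol2 (rho 0.37) to a like extent over the same promoters. The rank of H3K27me3 followed that of H3K27ac more closely (rho 0.68). H3K27me3, H3K27ac and RNA-Pol2 came from the same assay and were ranked over the same IgG library, while Eed was not. Among the 5080 promoters high in H3K27me3, the rho between Eed and the mark was 0.11. Among the 5080 high in Eed it was 0.19.

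The relation lay in the upper ranks. In each of the 5 lower deciles of H3K27me3 the median Eed percentile stayed between 37.9 and 41.8. It was 66.6 in the decile from 70 to 80, 78.6 in the next and 84.7 in the highest. Within the highest decile the share of promoters high in Eed was 33.3% between percentiles 90 and 95, 36.5% between 95 and 98, 46.1% between 98 and 99 and 44.9% above 99. The median H3K27me3 counts over those 4 bands went from 97 to 1200, and the median Eed counts from 90 to 107. The bands were cut on the mark, so the range of its medians is set by the choice. Seen from Eed, the median H3K27me3 percentile lay between 37.4 and 42.0 in the 7 lower deciles and at 85.0 in the highest.

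**Figure D1:**
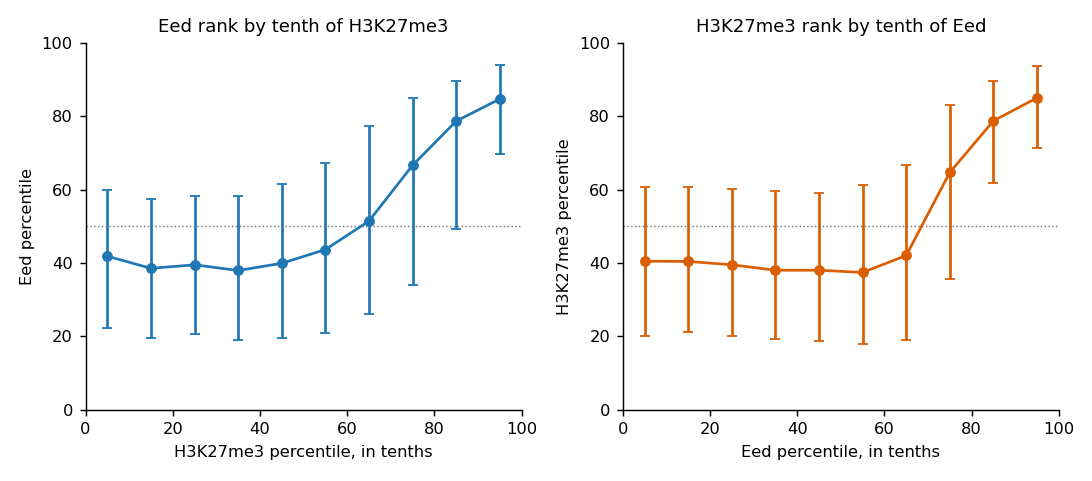
Median percentile of Eed by decile of H3K27me3 rank (left, 0 to 100) and of H3K27me3 by decile of Eed rank (right, 0 to 100) over 50816 promoters, with bars from the 25th to the 75th percentile and a dotted line at 50. Both curves are flat in the lower deciles and reach 84.7 and 85.0 in the highest.

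Promoters high in both numbered 1866, which is 36.7% of the 5080 promoters high in each measure (95% Wilson interval 35.4% to 38.1%). High in 1 measure is 10% of promoters by construction, and the class holds 3.67% of all tested promoters. Its median counts were 177 for Eed against 23 for input, and 226 for H3K27me3 against 24 for IgG. Eed without mark held 490 promoters, 9.65% of those high in Eed and 0.964% of all tested. Their median was 131 Eed counts against 20 of input, with 23 H3K27me3 counts against 30 of IgG. With input in place of IgG as the control of the mark, 1148 promoters fell in this class. Ranked among protein-coding promoters only, it held 327 promoters, 16.1% of those high in Eed. Mark without Eed held 773 promoters, 15.2% of those high in H3K27me3 and 1.52% of all tested. Their median was 10 Eed counts against 24 of input, with 150 H3K27me3 counts against 21 of IgG. For comparison, the median over all tested promoters was 11 Eed, 19 input, 28 H3K27me3 and 26 IgG counts. The median log2 ratio of Eed over input was -1.96 in the last class and -1.32 over all promoters. The classes were cut on these values, which are therefore a description.

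**Figure D2:**
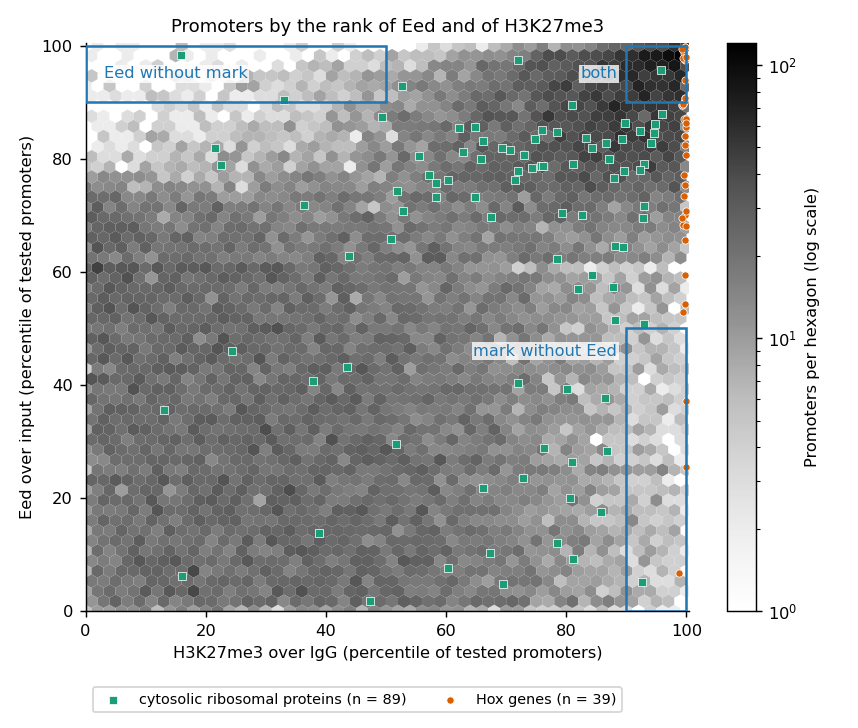
Each hexagon holds promoters by H3K27me3 percentile (horizontal) and Eed percentile (vertical), shaded by their number on a log scale, with blue frames for the 3 classes. The 39 Hox promoters (orange circles) stand at the right edge over a wide range of Eed ranks, and the 89 cytosolic ribosomal protein promoters (green squares) spread over both axes.

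The 10 protein-coding genes with the highest ranks in both measures were all regulators of development: Nkx2-4, Foxf1, Irx2, Foxc1, Hoxd8, Ebf3, Hmx3, Hoxd13, Gbx2 and Hhex. Nkx2-4 had 221 Eed counts against 12 of input and 802 H3K27me3 counts against 6 of IgG. Scaled to library totals, Eed was 9.51-fold over input (5.34 to 18.7) and H3K27me3 59.7-fold over IgG (27.3 to 163). Irx2 had 218 against 15 and 1688 against 8. Both lie far above the median promoter in each antibody library and at or below it in each control. Foxf1, a forkhead factor of lung and gut mesenchyme, had 265 Eed counts against 18 and 1640 H3K27me3 counts against 22. Foxc1, a forkhead factor of mesenchyme and meninges, had 187 against 11 and 1444 against 21. Hmx3, a homeobox factor of the inner ear, had 303 against 22 and 1690 against 10. Gbx2, which sets the boundary of midbrain and hindbrain, had 276 against 21 and 1685 against 20. Hhex, a homeobox factor of anterior endoderm and blood, had 303 against 24 and 1624 against 25. Ebf3, a helix-loop-helix factor of neurons, had 345 against 25 and 1211 against 12. Over the 10 genes the Eed ratio had a range from 6.52-fold to 9.51-fold, while the ratio of H3K27me3 ran from 29.0-fold to 94.3-fold. The windows of Foxf1, Irx2, Gbx2 and Hhex overlap another window.

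The genes with Eed and without the mark had varied functions. By the size of the rank gap the first 10 were AU022751, Mael, Tab3, Olfr212, Stag2, Peg12, Manea, Timm23, B4galt6 and Ears2. Mael had 146 Eed counts against 19 of input, and 8 H3K27me3 counts against 23 of IgG. Tab3 had 147 against 18 and 10 against 24. Eed at these promoters was 3.97-fold (2.45 to 6.78) and 4.22-fold (2.58 to 7.31) over input, and the mark 0.16-fold (0.06 to 0.36) and 0.19-fold (0.08 to 0.40) over IgG. Stag2, a cohesin subunit, had 138 Eed counts against 12 and 6 H3K27me3 counts against 15. Peg12, a paternally expressed imprinted gene, had 187 against 14 and 14 against 28. Ears2, the mitochondrial glutamyl-tRNA synthetase, had 219 against 32 and 15 against 31. Its H3K27ac counts were 135, and those of Manea, a mannosidase of the Golgi, were 75. Timm23, a subunit of the mitochondrial protein import channel, had 128 against 23 and 10 against 25, in a window that overlaps another. B4galt6, a glycosphingolipid enzyme, had 144 against 24 and 18 against 39. All 10 had an Eed summit within 1 kb of the start, and none had an H3K27me3 summit there. AU022751, Tab3 and Stag2 are on the X chromosome, which held 6.12% of this class and 4.24% of all tested promoters.

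Homeobox and paired-box regulators stood beside enzymes and membrane proteins among the genes with the mark and without Eed. The 10 largest rank gaps were at Isl2, Cyp27b1, Lhx8, Prss8, Plekhg3, Pax1, Pmp22, Hsd17b1, Tmem163 and Ggt1. Isl2, a LIM homeobox factor of motor neurons, had 2 Eed counts against 30 of input, and 696 H3K27me3 counts against 21 of IgG. Cyp27b1 had 4 against 30 and 688 against 23. Lhx8 had 4 against 22 and 963 against 25. The mark was 14.8-fold (9.61 to 24.1), 13.4-fold (8.83 to 21.2) and 17.2-fold (11.6 to 26.7) over IgG at these 3 promoters. Eed there was 0.034-fold (0.004 to 0.136), 0.069-fold (0.018 to 0.195) and 0.094-fold (0.024 to 0.276) of input. The median over all tested promoters was also below input, at a log2 ratio of -1.32. Pax1, a paired-box factor of the sclerotome, had 9 Eed counts against 33 and 1269 H3K27me3 counts against 23. Hsd17b1, which makes estradiol, had 6 against 25 and 771 against 33. Pmp22, a protein of peripheral myelin, had 2 against 16 and 197 against 27. Prss8, an epithelial serine protease, had 2 against 19 and 167 against 23. None of the 10 had an Eed summit within 1 kb of the start. The nearest Eed summit was 1.12 kb from the start of Lhx8, 2.50 kb from Isl2 and 6.18 kb from Cyp27b1. The window can therefore miss Eed that lies beside it.

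The same distances were taken for the whole class. Only 4.01% of the 773 promoters with mark and without Eed had an Eed summit within 1 kb, but 25.2% had 1 within 2 kb, 56.7% within 5 kb and 76.3% within 10 kb. Over all tested promoters those shares were 31.5%, 36.0%, 45.0% and 56.0%. The median distance to the nearest Eed summit was 3.77 kb in this class and 0.31 kb in promoters high in both. The class with mark and without Eed was cut on low Eed in the 2 kb window. Its lower shares than all promoters within 1 and 2 kb thus follow at least in part from the choice. Within 5 and 10 kb its shares were higher than those of all promoters. Promoters low in both measures (16090) share the cut on Eed, and their shares were 0.47%, 3.83%, 14.8% and 29.98%. The class with mark and without Eed had an Eed summit more often than these at each distance. For promoters with Eed and without mark, the median distance to the nearest H3K27me3 summit was 253 kb, against 164 kb over all promoters. Of them 0.61% had 1 within 10 kb, against 13.5%. These promoters were cut on low H3K27me3, which lowers that share by choice. Promoters low in both measures share that cut, with a median of 261 kb and 1.62% within 10 kb. The summit lists differ in length, so the distances of the 2 classes were not compared.

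Gene groups separated the measures. The lists were written with earlier results of these data known, so their counts are descriptions. In 8 lists of developmental regulators (cortical progenitor, neurogenic, cortical neuron, ventral forebrain, midbrain to spinal, non-neural, secreted signals and Hox genes, 288 genes together) 251 promoters were high in H3K27me3 and 124 were high in Eed. Of these genes 120 were high in both, 20 had the mark without Eed and 0 had Eed without the mark. The median percentiles were 99.0 for H3K27me3 and 87.3 for Eed. In 6 lists of general cell functions (cytosolic and mitochondrial ribosomal proteins, respiratory chain, proteasome, DNA replication and splicing, 367 genes) 44 were high in H3K27me3, 33 in Eed and 10 in both. Their medians were 73.0 and 74.3, against 50 over all tested promoters, most of which are not protein-coding. For comparison, 10% of all tested promoters were high in each measure by construction, and 3.67% were high in both. Of the 20325 coding promoters 3564 were high in H3K27me3 and 3991 in Eed. Ranked among coding promoters only, a comparison added after seeing the data, the medians for H3K27me3 and Eed were 98.4 and 74.9 in the developmental lists, and 55.6 and 51.5 in the general ones (361 coding genes). An Eed summit lay within 1 kb of the start for 226 of the 288 developmental genes and for 271 of the 367 general ones, that is 78.5% and 73.8%. The share was 31.5% over all promoters and 57.5% over coding ones. The groups lay closer in the share with an Eed summit than in the share high in Eed, which was 43.1% and 8.99%.

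**Figure D3:**
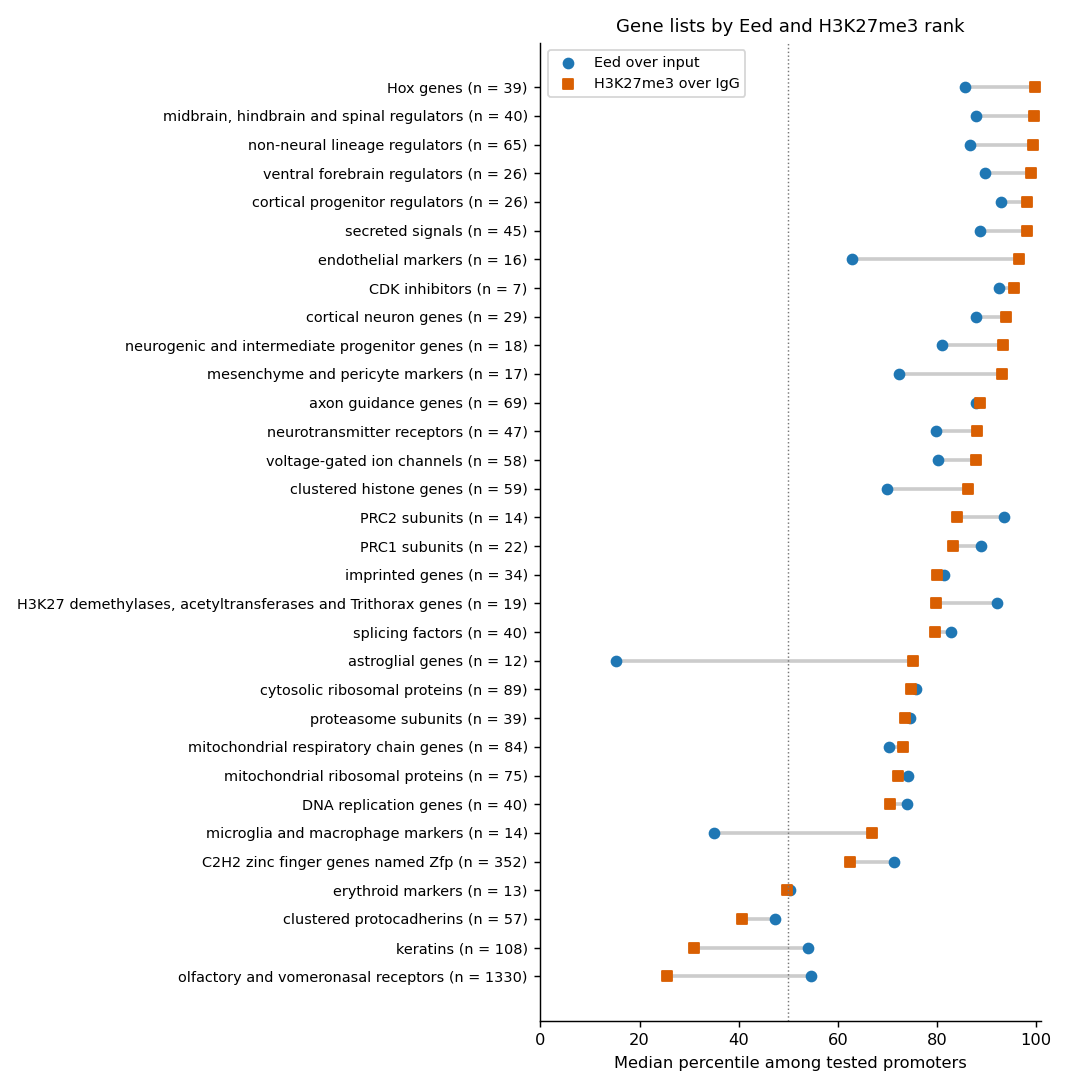
Median percentile of Eed over input (blue circles) and of H3K27me3 over IgG (orange squares) for 32 gene lists, ordered by H3K27me3, with the number of tested promoters and a dotted line at the median of all promoters. Hox genes have the highest H3K27me3 median (99.7) and PRC2 subunits the highest Eed median (93.5).

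Regulators of the forebrain itself were high in both measures. In the 26 cortical progenitor regulators the median was 93.0 for Eed and 98.1 for H3K27me3, and 15 were high in both. Sox2, which maintains neural progenitors, had 183 Eed counts against 14 of input and 267 H3K27me3 counts against 8 of IgG. It also had 90 H3K27ac counts, in tissue that mixes cell types, where fewer cells of a type and less signal per cell cannot be told apart. Emx2, a homeobox factor of the dorsal telencephalon, had 182 against 27 and 387 against 17, with 74 H3K27ac counts. Pax6, the paired-box factor of dorsal progenitors, had 14 Eed counts against 27 of input but 999 H3K27me3 counts against 16. Nr2f2, a nuclear receptor of the caudal and ventral forebrain, likewise had 10 against 26 and 592 against 6. Pax6 and Nr2f2 were the 2 cortical progenitor regulators with the mark and without Eed.

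Neurogenic genes followed the same order. Insm1, a zinc finger factor of intermediate progenitors, had 299 Eed counts against 22 and 187 H3K27me3 counts against 10. Neurog2, the proneural factor of the cortex, had 211 against 20 and 825 against 24. Eomes, the T-box factor of intermediate progenitors, had 138 against 28 and 778 against 11. Of the 18 genes in that list 10 were high in H3K27me3 and 4 in both. Of 26 ventral forebrain regulators 25 were high in H3K27me3 and 13 in both. All 40 midbrain, hindbrain and spinal regulators were high in H3K27me3 and 19 were also high in Eed, with 4 in the mark without Eed class. Irx5 had 238 Eed counts against 21 and 1338 H3K27me3 counts against 15, while Evx2, a homeobox factor of spinal interneurons next to the Hoxd cluster, had 40 against 20 and 1463 against 16. Of 65 non-neural lineage regulators 54 were high in H3K27me3 and 28 in both.

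Secreted signals gave 42 of 45 high in H3K27me3 and 21 in both. Fgf8, the growth factor of the anterior neural ridge and isthmus, had 182 Eed counts against 17 and 1467 H3K27me3 counts against 27. Nog, the BMP antagonist Noggin, had 320 against 30 and 142 against 17. Nog had more Eed counts and fewer H3K27me3 counts than Fgf8. The CDK inhibitors, textbook Polycomb targets that stop the cell cycle, had 4 of 7 high in both. Cdkn2a, which encodes Ink4a and Arf, had 207 against 19 and 1123 against 23. Axon guidance genes were high in Eed as often as in the mark, 31 of 69 each, with 19 in both. Ephb2, an ephrin receptor, had 309 Eed counts against 24 but 78 H3K27me3 counts against 24, and 111 H3K27ac counts.

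The genes of PRC2 subunits were high in Eed more often than in the mark, and those of PRC1 about equally often. Of 14 PRC2 subunit genes 8 were high in Eed and 2 in H3K27me3, with median percentiles of 93.5 and 84.1. For comparison, 3991 of the 20325 coding promoters were high in Eed and 3564 in H3K27me3. Ezh2 had 217 Eed counts against 27 of input and 36 H3K27me3 counts against 32 of IgG. Suz12 had 186 against 22 and 28 against 20. The Eed promoter itself had 121 against 27 and 31 against 20, in a window that overlaps another. All 3 core genes had an Eed summit at the start and none had an H3K27me3 summit. An Eed summit lay there at 57.5% of all coding promoters, and an H3K27me3 summit at 6.95% of all tested promoters. The 2 subunit genes high in the mark were Epop, with 299 against 31 and 738 against 12, and Jarid2, with 98 against 21 and 48 against 12. Of 22 PRC1 subunit genes 10 were high in Eed, 9 in H3K27me3 and 6 in both. They include Bmi1, with 293 against 26 and 296 against 8, and Cbx8, with 191 against 34 and 1086 against 15. Of 19 genes for H3K27 demethylases, acetyltransferases and Trithorax proteins 10 were high in Eed and 6 in the mark.

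Marker genes of other cell types varied in both measures. The 12 astroglial genes had medians of 15.2 for Eed and 75.1 for H3K27me3, with 9 low in Eed and 4 high in the mark. Slc1a3, the glial glutamate transporter, had 11 Eed counts against 32 of input and 99 H3K27me3 counts against 18. The 16 endothelial markers had medians of 62.9 and 96.5, with 3 high in both. Sox17, an endothelial and endodermal factor, had 9 against 28 and 1445 against 15, while Flt1, a VEGF receptor, had 221 against 23 and 1458 against 26. Both stood in the top ranks of the mark and differed in Eed. Of 17 mesenchyme and pericyte markers 5 were high in both, among them Twist1, a helix-loop-helix factor of mesenchyme, with 263 against 26 and 1429 against 18. None of 14 microglia and macrophage markers was high in either measure. Of 1330 olfactory and vomeronasal receptor promoters 3 were high in Eed and 2 in the mark, and 22 had an Eed summit. Of clustered protocadherins 0 of 57 were high in Eed and 12 had an Eed summit, and of keratins 1 of 108 was high and 35 had a summit. Of 352 zinc finger genes named Zfp 58 were high in Eed, 28 in H3K27me3 and 8 in both. For comparison, 3991 of the 20325 coding promoters were high in Eed and 3564 in H3K27me3. Ranked among coding promoters only, the medians of the Zfp genes were 47.9 for Eed and 42.9 for H3K27me3. Zfp367 had 266 Eed counts against 16 and 75 H3K27me3 counts against 24.

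The labelled tissue was checked on promoters of marker genes. The forebrain genes Emx2, Pax6, Sox2 and Dlx2 had 57 to 90 H3K27ac counts. The trunk genes Hoxa9 and Hoxc9 had 18 and 12 H3K27ac counts against 19 and 18 of IgG, with 1365 and 1840 of H3K27me3. Of the erythroid markers Hbb-bt and Alas2 had 6 and 9 H3K27ac counts, against 23 and 22 of IgG. The endothelial marker Cdh5 had 59 against 49, the microglia markers Aif1 57 against 20 and Csf1r 21 against 30, and the mesenchyme marker Col1a1 58 against 21. The share of those cells in the tissue was not tested.

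In the 4 Hox clusters Eed counts had a far wider range than the counts of the mark. Hox genes encode the homeobox factors that pattern the trunk and are silent in forebrain. All 39 Hox promoters were high in H3K27me3, where the background is 10%, and 11 of them were high in Eed. H3K27me3 counts lay between 883 and 2136, a 2.42-fold range. Eed counts lay between 6 and 285, a 47.5-fold range, while input lay between 15 and 37. Across the 39 genes Spearman's rho between Eed and H3K27me3 counts was 0.07, as a description over neighbouring genes.

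**Figure D4:**
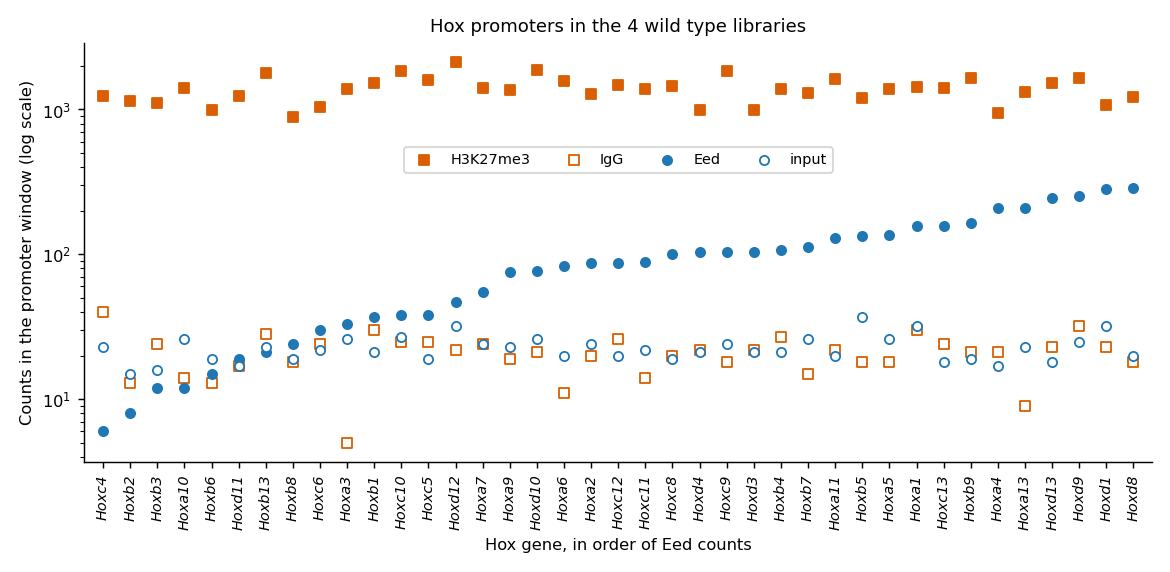
Counts in each of the 39 Hox promoter windows (log scale) for Eed and input (filled and open blue circles) and for H3K27me3 and IgG (filled and open orange squares), in order of Eed counts. H3K27me3 stays between 883 and 2136, while Eed goes from 6 at Hoxc4, below its input, to 285 at Hoxd8.

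Hoxd8 had 285 Eed counts against 20 of input and 1214 H3K27me3 counts against 18 of IgG. Hoxd1 had 282 against 32 and 1072 against 23, and Hoxd9 had 253 against 25 and 1652 against 32. At the other end Hoxc4 had 6 against 23 and 1247 against 40. Hoxb2 had 8 against 15 and 1152 against 13, and Hoxa10 had 12 against 26 and 1397 against 14. These 3 are the Hox genes with the mark and without Eed. Neighbours differed: Hoxb9 had 164 Eed counts and Hoxb8 had 24, with 1639 and 883 of H3K27me3. Hoxd12, with the most H3K27me3 of all (2136), had 47 Eed counts, next to Hoxd13 with 245 and 1516. Median Eed counts were 30.5 in Hoxb, 87 in Hoxa, 87 in Hoxc and 104 in Hoxd. The windows of Hoxd3 and Hoxd4 overlap and gave almost the same counts.

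The clusters held many Eed summits and few of the mark. With 94.7 to 171 kb between the first and last start, Hoxa, Hoxb, Hoxc and Hoxd had 29, 34, 23 and 21 Eed summits and 1, 12, 1 and 2 H3K27me3 summits. An Eed summit lay within 1 kb of 31 of the 39 starts and an H3K27me3 summit within 1 kb of 4. Over all tested promoters, the share with an H3K27me3 summit fell from 67.1% between percentiles 95 and 98 of the mark to 34.6% above percentile 99. In the EedcKO Eed library the 39 windows had 38 to 84 counts, a 2.21-fold range. A pair of Hox promoters from the ends of the Eed order is shown with CG in capitals, Hoxa10 (chr6:52240805-52241104, minus strand) as the Hox promoter with the fewest Eed counts among those with a sequence, and Hoxd8 (chr2:74704365-74704664, plus strand) with the most.
Hoxa10: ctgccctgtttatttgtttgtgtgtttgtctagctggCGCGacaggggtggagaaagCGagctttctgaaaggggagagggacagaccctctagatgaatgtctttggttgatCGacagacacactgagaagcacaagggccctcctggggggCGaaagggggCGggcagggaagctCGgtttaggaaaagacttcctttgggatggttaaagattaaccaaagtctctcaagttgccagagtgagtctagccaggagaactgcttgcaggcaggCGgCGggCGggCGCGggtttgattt
Hoxd8: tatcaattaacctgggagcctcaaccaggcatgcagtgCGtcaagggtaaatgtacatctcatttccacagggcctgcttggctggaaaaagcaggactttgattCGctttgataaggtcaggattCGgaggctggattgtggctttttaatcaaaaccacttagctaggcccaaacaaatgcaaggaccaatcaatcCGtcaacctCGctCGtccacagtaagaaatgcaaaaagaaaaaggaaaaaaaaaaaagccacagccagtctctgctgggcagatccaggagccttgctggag

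They hold 12 and 6 CG, so here the promoter with more Eed has fewer CG. The nearest Eed summit was 0.38 kb from the start of Hoxd8, outside the bases shown.

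Summits were the authors' peak calls from the same libraries, and an Eed summit is a looser bound than high in Eed. Of promoters high in H3K27me3, 36.7% were high in Eed and 77.9% had an Eed summit within 1 kb of the start. The lists held 61019 Eed summits and 10662 H3K27me3 summits. An Eed summit lay within 1 kb of the start at 16005 promoters (31.5%) and an H3K27me3 summit at 3530 (6.95%). Of the 3530, 83.4% also had an Eed summit (82.1% to 84.6%), and of the 16005, 18.4% also had an H3K27me3 summit (17.802% to 19.002%). Among 5003 promoters that had a summit of H3K27ac but not of H3K27me3, 88.7% had an Eed summit (87.8% to 89.5%). That share lies above the one for promoters with a summit of the mark. Of the promoters with an Eed summit 31.5% had an H3K27ac summit, and 53.9% had neither mark's summit.

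Promoters with an Eed summit were split by whether they also had one of the mark, which sets the difference in H3K27me3. Protein-coding promoters with both summits (2366) had median Eed counts of 114, and those with an Eed summit alone (9325) had 94. Their H3K27me3 medians were 173 and 42. The 339 coding promoters with an H3K27me3 summit alone had 13 Eed counts against 24 of input and 129 H3K27me3 counts. Those with neither (8295) had 9 and 25.

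Away from starts the overlap was smaller. Of all H3K27me3 summits 43.2% lay within 1 kb of an Eed summit (42.2% to 44.1%), with 80.5% of those at a start and 27.1% of the others. Of H3K27ac summits 60.2% and of RNA-Pol2 summits 63.8% lay within 1 kb of an Eed summit, but more of them were at a start (54.1% and 55.4%, against 30.1% of H3K27me3 summits). Away from starts the shares were 27.5% and 33.5%. Of Eed summits 8.27% lay within 1 kb of an H3K27me3 summit and 8.60% within 1 kb of an H3K27ac summit. The overlap rose with the score of the summit, which is the authors' own value. In the lowest of 4 score bins 1.65% of Eed summits lay near an H3K27me3 summit and in the highest 21.5%. For H3K27me3 summits near an Eed summit those shares were 26.8% and 72.2%.

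Promoters next to one high in H3K27me3 were more often high in the mark than over all pairs, which was not so for Eed. The mark and H3K27ac share an assay and the IgG control, while Eed has another assay and control. Whether the mark is continuous between neighbours was not tested. Over 35012 pairs of neighbouring, non-overlapping promoters with starts at most 50 kb apart, the next promoter was also high in 31.7% of pairs whose first was high in the mark (30.2% to 33.2%), against 9.82% of all pairs. For Eed it was 8.29% (7.39% to 9.28%), against 8.48% of all pairs. For H3K27ac it was 17.3%, against 9.21%. The rho between neighbours was 0.38 for H3K27me3, 0.03 for Eed and 0.49 for H3K27ac. The promoter next to one high in Eed was high no more often than any other.

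The classes differed in sequence composition, which the ranks did not use. A RefSeq promoter within 1 kb of the start was found for 68.8% of the tested coding promoters (13981), which is under 80%, so as a check over the whole classes this is void and the values describe only the promoters with a sequence. Their median number of CG in 300 bases was 29 in promoters high in both (n = 1023), 26 in Eed without mark (n = 235) and 10 in mark without Eed (n = 225), against 16 in all 13981. The interquartile ranges were 21 to 37, 18 to 32 and 6 to 15. Spearman's rho of the CG count was 0.71 with Eed over input and 0.50 with H3K27me3 over IgG. It was 0.63 with H3K27ac over IgG and 0.34 with Eed over input in EedcKO. With the level of the controls themselves it was 0.46 for input and -0.15 for IgG. Among the 2470 of these promoters high in H3K27me3 it was 0.55 with Eed and -0.04 with the mark.

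**Figure D5:**
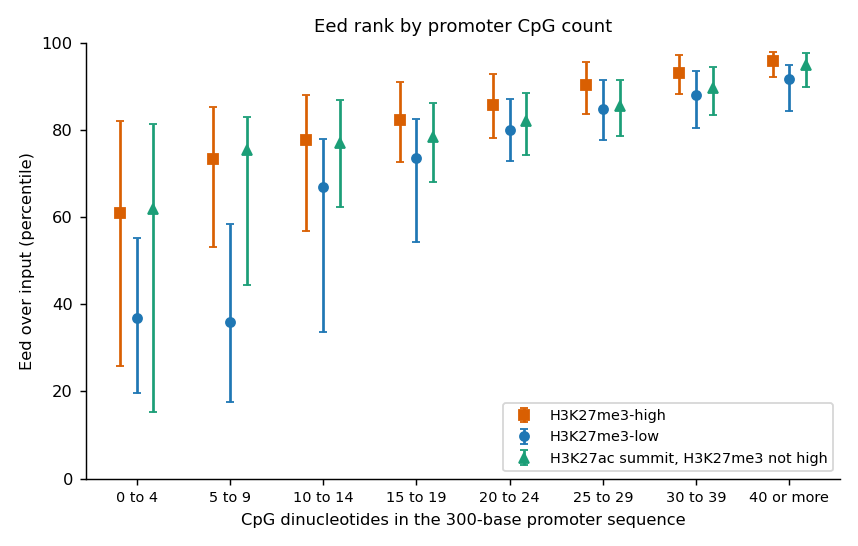
Median Eed percentile (0 to 100) with bars from the 25th to the 75th percentile, by the number of CG in the 300-base promoter sequence, for coding promoters high in H3K27me3 (orange), low in H3K27me3 (blue) and with a summit of H3K27ac but not high in H3K27me3 (green). From 20 CG upward the medians of the 3 groups lie within 6 percentile points of each other.

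The difference in Eed between marked and unmarked promoters varied with the CG count. With 30 to 39 CG the median Eed percentile was 93.1 in promoters high in H3K27me3 (n = 411), 88.0 in those low in it (n = 150) and 89.6 in those with an H3K27ac summit and not high in the mark (n = 633). Their median Eed counts were 156, 112 and 130, against 26, 26 and 27 of input, and 65.7%, 41.3% and 48.7% of them were high in Eed. With 10 to 14 CG the median percentiles were 77.8 in promoters high in the mark and 67.0 in those low in it. With 5 to 9 CG they were 73.4 (n = 233) and 35.9 (n = 809), the widest gap in median percentile of the 8 bins. The median Eed counts there were 40 and 10, against 23 and 19 of input. In this bin 13.3% and 1.24% were high in Eed, a smaller gap in that share than with 30 to 39 CG. With 0 to 4 CG the medians were 61.0 in promoters high in the mark (n = 91) and 36.7 in those low in it (n = 1967).

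Short motifs were counted in the same 300 bases on both strands, over all tested promoters with a sequence (n = 16944). These were 60.6%, 52.9% and 38.0% of the 3 classes and 33.3% of all tested, so the shares describe only those promoters. A match is a description and not a bound site. GGGCGG, the GC box of Sp factors, was in 79.9% of promoters high in both, 77.2% of Eed without mark and 42.5% of mark without Eed, against 47.9% of all. CCGGAAG, the core of ETS factor sites, was in 4.95%, 20.8% and 7.14%, against 12.3%. TATAAA, the TATA box, was in 5.92%, 5.02% and 15.6%, against 11.8%. CACGTG, the E-box of Myc and USF, was in 9.46%, 13.5% and 7.14%, against 8.38%.

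Other readouts also separated the classes. H3K27ac summits lay at 18.6% of promoters high in both (16.9% to 20.5%), 28.2% of Eed without mark (24.4% to 32.3%) and 8.15% of mark without Eed (6.42% to 10.3%), against 11.2% of all tested. RNA-Pol2 summits lay at 14.3%, 5.71% and 5.17%, against 5.35%. Protein-coding genes made up 78.5%, 62.4% and 42.9% of the classes, against 40.0% of all. In the highest 1% of H3K27me3 ranks 0.79% of promoters had an H3K27ac summit, and between percentiles 90 and 95 27.3% had. Promoters with moderate H3K27me3 thus had acetylation summits more often than those at the top.

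The classes and the genes named for them were chosen on wild type Eed, so a smaller contrast in any other library follows from the choice, and the EedcKO values are given only side by side. The EedcKO Eed library's median counts over the 3 classes were 50 (high in both), 36 (Eed without mark) and 39 (mark without Eed), against 21, 19 and 21 of its own input. The median log2 ratio over input was 1.89, 1.70 and -1.96 in wild type and 0.64, 0.35 and 0.21 in EedcKO. Isl2 had 37 counts in the EedcKO Eed library against 17 of input, where wild type had 2 against 30. Nkx2-4 had 33 against 21, where wild type had 221 against 12. The rho between the Eed ranks of the 2 genotypes was 0.25, and that between Eed in EedcKO and wild type H3K27me3 was 0.41, as a description over 50816 promoters.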

How the data were processed

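The deposited files hold whole-number counts of reads, not normalized, in 55385 promoter windows, and lists of summits. They have no header lines, and the build is mm10 per the submitters' processing notes. The deposited summit score was read as a −log10 p or q value and used only to rank summits within a list. The submitters' processing notes name ChIPseeker 1.22.1, deepTools 3.4.0, MACS2 2.2.7.1 and Bowtie2 2.4.1 without their settings.

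Counts were scaled to window length and to the summed promoter counts of the library (RPKM), and log2((antibody + 0.5)/(control + 0.5)) was ranked. Each of 55276 symbols kept 1 window, that of highest mean RPKM in input and IgG, and 4460 symbols with fewer than 10 control counts were left out. Gene types and sequences came from RefSeq GRCm38.p6, matched by symbol or an unambiguous synonym. Folds over control have exact Clopper-Pearson intervals and shares have Wilson intervals.

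Genes named were the 10 coding genes with the highest lower rank (both), the 10 with the largest rank gap in each other class (at least 50 antibody counts), the 2 highest members of each list in each measure, and the PRC2 core genes. Some genes that the rule names are not reported here. Hox genes and tissue markers were listed by name. The other genes shown come from these lists. The classes, lists and rules were chosen with earlier results of these data known. Analyses used Python 3.11.15, pandas 2.3.3 and scipy 1.17.1, and the ranking was tested on simulated data.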

Additional observations from a re-analysis of the deposited data

How the results depend on the processing

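Each group had 1 library, so depth and counting error are the only precision known. No paired analysis was possible because each group has 1 library. The correlation of Eed and H3K27me3 ranks was 0.50 on antibody levels without a control, 0.33 with input as the control of both, 0.49 in protein-coding promoters only and 0.30 in windows that overlap no other. Promoters high in both, with Eed and without mark, and with mark and without Eed numbered 641, 184 and 339 with the top 5% as high, and 5473, 1242 and 2060 with the top 20%. Ranked among protein-coding promoters only, 567 were high in both, 327 had Eed without the mark and 394 had the mark without Eed. With input as the control of both, 1148 had Eed without the mark, and with a 2-fold ratio as high and a ratio under 1 as low 3388 had. The last setting moves both bounds at once. Under a pseudocount of 2 RPKM, no filter on control counts or a minimum of 20, all 3 counts stayed within 1.5 times of those reported.

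The share of H3K27me3 summit promoters with an Eed summit was 90.5% with summits within 5 kb, 82.0% with the summits of each list above its median score and 87.5% in coding promoters only. The reverse share was 22.4%, 13.5% and 20.2%. The share of H3K27me3 summits near an Eed summit was 31.0% within 500 bp, 71.9% within 5 kb and 52.2% for summits above the median score. The share of Eed summits near an H3K27me3 summit was 5.59%, 14.1% and 9.87%. The rank gap kept its sign without a control at all 20 genes named for it. They were chosen for the largest gaps and kept the same antibody counts, so this is no check. Ranked among coding promoters only, all 32 list medians were lower, with changes of -24.0 to -6.09 points for Eed and -19.5 to -0.12 for H3K27me3.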

Other observations

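Germline genes were seen repeatedly among promoters with Eed and without the mark, beginning with Mael. A list of 45 germline and meiotic genes was then written after these values had been seen, so its counts are a description and support nothing. Of the 45, 18 were high in Eed, 2 were high in H3K27me3 and 10 had Eed without the mark, a class that holds 0.964% of all promoters. Their median percentiles were 86.5 for Eed and 39.7 for H3K27me3. Dazl, an RNA-binding protein needed for germ cell development, had 242 Eed counts against 22 of input and 23 H3K27me3 counts against 29 of IgG. Ddx4, the germ cell helicase Vasa, had 151 against 14 and 16 against 19. Sycp3, a protein of the synaptonemal complex, had 144 against 21 and 35 against 41. Hsf5 had 254 against 24 and 23 against 41, and Tdrd1, a Tudor protein of the piRNA pathway, had 136 against 11 and 34 against 36. The genes Tdrd6 and Meiob were high in both, with 472 and 314 H3K27me3 counts against 25 and 28 of IgG. An Eed summit lay within 1 kb of 39 of the 45 starts and an H3K27me3 summit within 1 kb of 2.

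Among clustered histone genes 18 of 59 promoters were high in H3K27me3, but their median counts were 29 against 10 of IgG, and 0 of 59 had an H3K27me3 summit. Over all tested promoters the medians were 28 and 26, so the histone genes stood apart in IgG and hardly in H3K27me3 counts.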
